A study of Homo sapiens with 2 samples.

Results

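LTR repeats are the remains of ancient retroviral insertions, and 734 of the 18070 mERG peaks in VCaP cells had their centre in one. That share was 4.06% (Wilson 95% interval 3.78 to 4.36). The members were the peaks whose detailed annotation named a repeat of class LTR at the peak centre, and no measured value entered the choice. mERG is ERG mono-methylated on a lysine, and VCaP is a prostate cancer cell line in which the TMPRSS2-ERG fusion drives ERG. The peaks came from 1 ChIP library made with an anti-mERG antibody and were called by the authors against 1 control library of the same line, titled input but with an IgG antibody in its label. Both libraries were of formaldehyde-fixed VCaP cells in regular growth medium, and neither had a replicate. Every interval below is therefore a 95% interval that treats peaks as independent and covers counting error only. The read depth behind the peaks was unknown. The score of a peak was -10 times the log10 of its MACS p-value. A higher score thus stands for stronger statistical evidence of enrichment over the control, not for a larger fold enrichment. Below, stronger and weaker peaks are those with higher and lower scores.

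ERG is a transcription factor of the ETS family, which binds DNA around a GGAA core, and EZH2 is the methyltransferase of Polycomb repressive complex 2. Endogenous retroviruses carry promoter and enhancer sequence in their long terminal repeats, and most copies have lost the internal genes and survive as a lone terminal repeat. In the human genome the ERVL-MaLR family holds the old MLT1, MST and THE1 repeats, ERV1 and ERVL are further large families, and ERVK holds the youngest insertions. Cells keep many of these elements silent through KRAB zinc finger proteins, histone H3K9 methyltransferases and DNA methylation.

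The sequences below, read from hg19, show what lay under the peaks. All stretches were read 5′ to 3′ on the strand of the motif. The first 4 are from peaks among the 6 highest scores, and capitals mark the GGAA nearest to the peak centre.
MLT1E2 at CSNK2A1 (chr20:520029-520076, minus strand): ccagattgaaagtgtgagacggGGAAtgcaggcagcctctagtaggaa
LTR10C at MAPK8IP1P2 (chr17:43653989-43654036, minus strand): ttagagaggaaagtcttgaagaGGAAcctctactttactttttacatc
MLT1C at LINC01012 (chr6:27671817-27671864, plus strand): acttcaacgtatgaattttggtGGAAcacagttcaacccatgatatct
MLT1L at ADAR (chr1:154591645-154591692, minus strand): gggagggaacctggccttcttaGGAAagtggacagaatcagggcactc

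Next are peaks with an ETS core motif, defined as CCGGAAGT with at most 1 mismatch outside GGAA on either strand within 100 bp of the centre. The first 5 had some of the highest scores among them, and the last holds the motif in full. Capitals mark the motif.
MSTD at RHOBTB3 (chr5:95073989-95074028, minus strand): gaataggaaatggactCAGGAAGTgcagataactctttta
MLT1F1 at GRAMD2B (chr5:125722158-125722197, plus strand): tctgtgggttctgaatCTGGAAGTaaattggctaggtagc
LTR16E2 at KIAA1549 (chr7:138605882-138605921, plus strand): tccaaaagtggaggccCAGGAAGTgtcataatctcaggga
MLT1J1 at ITGB5 (chr3:124566544-124566583, minus strand): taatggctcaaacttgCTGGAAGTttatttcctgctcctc
MLT1J at CTNNAL1 (chr9:111783115-111783154, plus strand): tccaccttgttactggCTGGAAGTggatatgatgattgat
MER21C at UQCC1 (chr20:33982413-33982452, minus strand): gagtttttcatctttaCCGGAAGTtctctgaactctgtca

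MLT1A0 was the repeat name with the most peaks, and the 12-base word its windows shared most often is in capitals in 2 of them.
MLT1A0 at CDK5R1 (chr17:30950909-30950948, plus strand): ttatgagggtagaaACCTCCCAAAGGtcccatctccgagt
MLT1A0 at SECISBP2L (chr15:49313240-49313279, minus strand): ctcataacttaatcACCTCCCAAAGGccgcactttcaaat

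By family, ERVL-MaLR held 356 of the LTR peaks, which was 48.5% (44.9 to 52.1). ERV1 held 186 peaks (25.3%, interval 22.3 to 28.6). ERVL held 163 peaks (22.2%, interval 19.4 to 25.3). ERVK held 21 peaks (2.86%, interval 1.88 to 4.33). The remaining 8 peaks were annotated Gypsy (4), Gypsy? (2) and ERVL? (2). Nearly all LTR peaks thus fell in the 4 main retroviral families, with 726 of 734. The share that these families take of the genome was not analysed here, so the counts say nothing of preference.

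Most LTR peaks lay on terminal repeats. Only 135 of the 734 (18.4%, interval 15.8 to 21.4) were centred on an internal part, the segment between the terminal repeats of a full element. This split differed among families. Internal parts made up 39.2% of ERV1 peaks (73 of 186), 33.3% of ERVK peaks (7 of 21) and 20.2% of ERVL peaks (33 of 163). In ERVL-MaLR they made up 6.18% (22 of 356). Peaks on internal and terminal parts had median scores of 40.8 and 39.6.

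The LTR peaks carried 237 distinct repeat names, and 113 of these names occurred once. The 10 most frequent names together covered 195 peaks. MLT1A0 had 25 peaks, MLT1D 24, MLT1J and THE1B 23 each, and MLT1C 22. MER21C, the only ERVL name among the 10, had 20. MLT1K had 17 peaks, MLT1A and MLT1B 14 each, and MLT1L 13, a count it shared with MSTA and MSTB. Grouped by the start of the name, MLT1 repeats held 250 peaks (34.1%) under 36 names, THE1 repeats 55, MST repeats 51 and MER21 repeats 42. LTR12, a repeat known to serve as a promoter of several genes, had 3 peaks.

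The scores of LTR peaks ran from 33.01, the lowest value in the whole list, to 340.5. A score of 33.01 stands for a MACS p-value of 5e-04, and the upper quartile of LTR scores was 49.1. Many LTR peaks thus lay near this floor. The median of LTR peaks was 39.7 (39.1 to 40.8), against 41.2 (40.9 to 41.4) for the 9544 intronic and intergenic peaks without a repeat. The difference of medians was -1.48 (-2.07 to -0.289), and its value varied between settings. In the stronger 50% of peaks it was -0.300 (-1.28 to 1.42), at a minimum score of 50 it was -0.260 (-3.18 to 3.06), and both intervals include 0. Both settings select peaks by the score that is compared, so they cannot decide whether the difference depends on peak strength. The difference from LINE peaks, a comparison chosen after the data were seen, was -1.15 (-1.79 to 0.134), and its interval also includes 0. With the strongest peak of each gene only, the difference from peaks without a repeat was -4.24 (-6.18 to -2.12). LINE and SINE peaks had medians of 40.8 and 40.6. Among the families the medians were 39.6 for ERVL-MaLR, 41.2 for ERV1, 39.5 for ERVL and 40.4 for ERVK. The intervals of these 4 medians overlapped. A score of at least 50 was reached by 164 LTR peaks, or 22.3%, beside 25.0% of all peaks and 25.7% of peaks without a repeat. LTR peaks were present among the strongest sites at about their overall share. They made up 8 of the 181 peaks in the top 1% by score (4.42%, interval 2.26 to 8.48) and 68 of the 1807 in the top 10% (3.76%, interval 2.98 to 4.74).

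**Figure D1:**
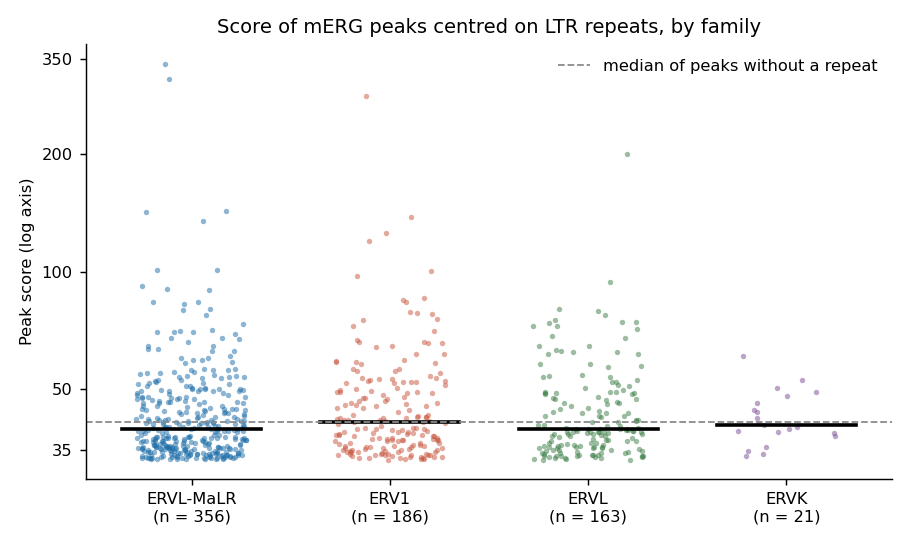
Each point is 1 mERG peak centred on an LTR repeat of the family on the x axis, with its score on a log y axis; black bars are family medians and the dashed line is the median of intronic and intergenic peaks without a repeat, 41.2. Most points of every family lie below 50, and the highest score was 199.8 or more in 3 families and 60.7 in ERVK.

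The strongest LTR peak lay in intron 1 of 13 of CSNK2A1, which encodes a catalytic subunit of casein kinase 2, at chr20:518641-521448. It was 2808 bp wide, scored 340.5 and was centred on an MLT1E2 element 4438 bp from the start site. An MSTB peak in intron 2 of TACC1, a gene for a coiled-coil protein of the centrosome, scored 310.4 and was 6296 bp wide. An LTR10C peak between genes on chromosome 17 scored 281, and its nearest start site was that of the pseudogene MAPK8IP1P2 at 25752 bp. These were also the highest ERVL-MaLR and ERV1 scores. The strongest ERVL peak was on MER21B in intron 1 of E2F3, a cell cycle transcription factor, with a score of 199.8.

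The other members of the top 10 scored between 119.6 and 143. They were MLT1C in the long non-coding gene LINC01012, MLT1L in ADAR, the RNA-editing enzyme, and MER61-int in the kinase gene TAOK1. THE1C in FAM13B, LTR31 in the transcription factor gene TFCP2 and LTR19A in RERE, a nuclear receptor corepressor, completed them. Of these 10 peaks 9 lay in introns, 6 of them in intron 1. Widths of 1 kb or more were found in 9 of the 10, whereas 38 of all 734 LTR peaks (5.18%) were that wide. All 10 held GGAA near the centre and 0 of them the ETS core motif.

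The strongest ERVK peak, on HERVK9-int, scored 60.7 and lay in intron 4 of GOLPH3L, with ENSA as the gene of the nearest start site. The highest Gypsy score was 45.1, on LTR81B in LIMCH1. In the smallest annotated groups, LTR87 in NDUFA12 scored 79.1 for ERVL? and LTR85c in an intron of BRAF scored 40.2 for Gypsy?. The gene named at this last peak was NDUFB2-AS1.

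Peak width was close to that of other peaks. The median LTR peak was 393.5 bp wide (377 to 405), against 404 bp (399 to 408) without a repeat. The difference was -10.5 bp (-27.5 to 2.04), an interval that includes 0. Widths ran from 134 to 6417 bp. Among the 4 main families ERVK peaks had the lowest median, 332 bp, but its interval of 277 to 461 bp spanned the medians of the other 3 main families.

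LTR peaks lay between genes more often than peaks without a repeat and those on the other large repeat classes. Of the 733 LTR peaks with a location, 618 lay in introns and 115 (15.7%, interval 13.2 to 18.5) between genes. The intergenic share was 7.04% (672 of 9544) for peaks without a repeat, and the difference was 8.65 percentage points (6.14 to 11.5). LINE (7.52%), SINE (8.13%) and DNA transposon peaks (8.37%) were all below LTR peaks, and the 3 differences had intervals above 0. The lower bound was 5.54 points against LINE, 4.86 against SINE and 4.17 against DNA transposons. Peaks on the remaining repeat classes, pooled, were above LTR peaks, with 44 of 177 between genes (24.9%, interval 19.1 to 31.7). With the strongest peak of each gene only, the difference from peaks without a repeat was 17.2 points (11.5 to 23.6). The LTR peak without a location was an MSTA element on an unplaced contig.

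Within LTR peaks the families differed in location. ERVK had 8 of 21 peaks between genes (38.1%, interval 20.8 to 59.1) and ERV1 had 41 of 186 (22.04%, interval 16.7 to 28.5). ERVL had 21 of 163 (12.9%, interval 8.58 to 18.9) and ERVL-MaLR 43 of 355 (12.1%, interval 9.12 to 15.9). ERV1 was 9.16 points above ERVL (1.11 to 16.9), and ERVL-MaLR minus ERV1 gave -9.93 points (-17.1 to -3.36). Each of the 4 families had an intergenic share above that of peaks without a repeat, the smallest gap being 5.07 points (2.03 to 8.91) for ERVL-MaLR.

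**Figure D2:**
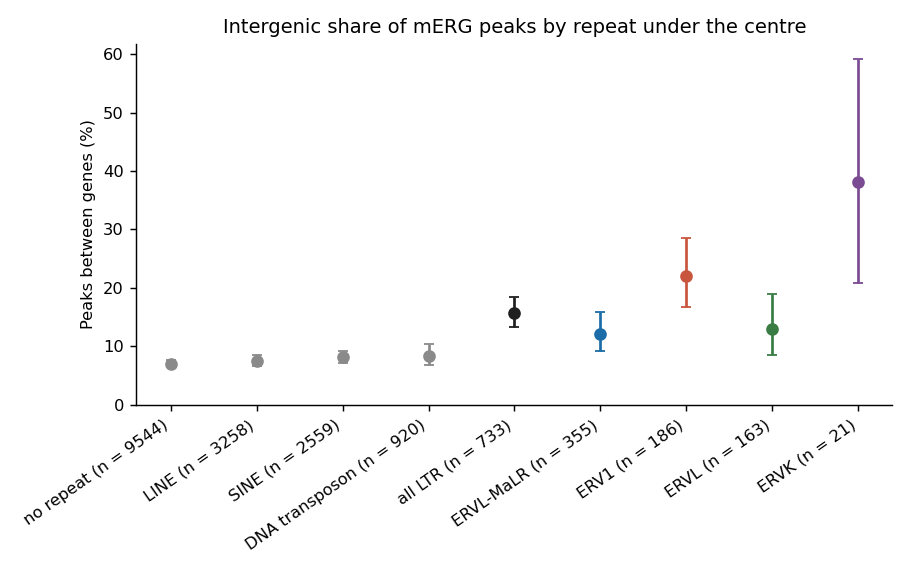
Percentage of mERG peaks between genes, by the repeat annotated at the peak centre; points are shares, bars are Wilson 95% intervals, and n counts peaks with a location. LTR peaks stand at 15.7% against 7.04% without a repeat, with ERV1 at 22.04% and ERVK at 38.1%.

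Intergenic LTR peaks were weaker and narrower than intronic ones, as were intergenic peaks without a repeat. Their median score was 38.1, against 40.2 in introns, a difference of -2.11 (-3.76 to -0.579). Their median width was 342 bp against 401 bp, a difference of -59.0 bp (-86.2 to -9.60). Without a repeat the median scores were 38.1 between genes and 41.5 in introns, and the widths 349 and 407 bp. Intergenic LTR peaks minus intergenic peaks without a repeat gave 0.0650 in score (-1.34 to 1.47) and -7 bp in width (-34.8 to 40.5), and both intervals include 0. A score of at least 50 was reached by 11 of the 115 intergenic peaks (9.57%) and by 153 of the 618 intronic ones (24.8%). At a minimum score of 50 the intergenic excess over peaks without a repeat was 2.58 points (-0.461 to 7.54), an interval that includes 0.

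The intergenic class follows the RefSeq models used by the annotation tool. In the GENCODE release 44 annotation lifted to the same build, 53 of the 115 intergenic LTR peaks (46.1%) had their centre inside a gene. Of these centres, 27 lay in a long non-coding RNA gene and 29 in a protein-coding gene, with some in both. The corresponding share of intergenic peaks without a repeat was 56.5% (380 of 672), and the difference was -10.5 points (-20.0 to -0.619). Over all LTR peaks, 91.3% were inside a GENCODE gene, against 96.9% without a repeat.

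Within 5 kb of the start site given in the list there were 62 LTR peaks (8.45%), beside 8.34% of peaks without a repeat. The median distance to the start site was 26573 bp for LTR peaks and 29057 bp without a repeat, a difference of -2484 bp (-4739 to 144). Among the frequent repeat names, MLT1D stood closest, with a median of 12124 bp (6862 to 19253), and THE1B farthest, at 49684 bp (21303 to 75198). LTR peaks overlapped a GENCODE transcript start in 9 cases (1.23%), against 3.15% of peaks without a repeat, and the difference was -1.93 points (-2.62 to -0.790). The share was similarly low for LINE (1.01%), SINE (1.29%) and DNA transposon peaks (1.52%), and 7.22% on the remaining repeat classes. LTR minus LINE gave 0.214 points (-0.494 to 1.34) and LTR minus SINE -0.0634 (-0.839 to 1.09). In 4 of the 9 the transcript was protein-coding, those of CSNK2A1 and TACC1 among them.

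Intron 1 held 217 of the 618 intronic LTR peaks (35.1%), beside 30.2% of intronic peaks without a repeat, a difference of 4.94 points (1.15 to 8.90). The host gene of the intron was found by transcript for 610 peaks, and 452 of them (74.1%) were named in the list for that host. The other 158 were named for a different gene whose start site was nearer. The same share was 70.6% for peaks without a repeat. A gene named by a peak is therefore often, but not always, the gene that contains it.

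LTR peaks were less crowded than peaks without a repeat. Another mERG peak lay within 10 kb of 467 of them (63.6%, interval 60.1 to 67.0), against 71.0% of peaks without a repeat, a difference of -7.38 points (-11.0 to -3.86). The median distance to the nearest peak was 4668 bp for LTR peaks and 3364 bp without a repeat. The share was 67.8% for LINE, 71.7% for SINE and 68.6% for DNA transposon peaks, and lower than for LTR peaks on the remaining repeat classes, at 55.6%. By location, in introns the shares were 69.9% (432 LTR peaks) and 73.1%, a difference of -3.24 points (-7.08 to 0.369) whose interval includes 0. Between genes they were 30.4% (35 LTR peaks) and 42.9%, a difference of -12.4 points (-21.0 to -2.76). A further LTR peak stood within 10 kb of 110 LTR peaks, and in 34 cases it carried the same repeat name. One such pair was on MER61-int in TAOK1, with scores of 138 and 97.5 and centres 1649 bp apart.

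LTR peaks were richer in GC than peaks without a repeat. Within 100 bp of the centre the median GC content was 43.3% (42.8 to 43.8) for LTR peaks and 37.3% (36.8 to 37.3) without a repeat. The difference was 5.97 points (5.47 to 6.67). LINE peaks had a median of 36.8% and SINE peaks 45.8%. Among the 4 main families ERV1 had the lowest median at 41.3%, ERVL-MaLR minus ERV1 being 2.49 points (0.914 to 3.60). ERVL and ERVL-MaLR both had 43.8% and ERVK 43.3%.

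GGAA on either strand, the core that all ETS factors bind, was found near the centre of 648 LTR peaks (88.3%, interval 85.8 to 90.4). Its share was 88.0% without a repeat, 83.8% over all peaks and 61.9% in SINE peaks. A word of 4 letters is frequent in any stretch of this length, and LTR peaks and peaks without a repeat differed by 0.259 points (-2.35 to 2.49). Among the 4 main families ERVL had the highest share, 93.3%, and ERVK the lowest, 71.4%.

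The ETS core motif was found in 35 LTR peaks (4.77%, interval 3.45 to 6.56). It was found in 2.51% of peaks without a repeat (240 of 9544) and in 2.63% of all peaks. The difference from peaks without a repeat was 2.25 points (0.892 to 4.07). LINE peaks had it in 2.52%, SINE peaks in 2.27% and DNA transposon peaks in 3.15%, and LTR minus DNA transposon gave 1.62 points (-0.259 to 3.65), an interval that includes 0. ERVL-MaLR held 22 of the 35, a share of 6.18% (4.12 to 9.18), and MLT1 elements alone held 19. ERV1 had 6 (3.23%), ERVL 5 (3.07%) and ERVK 2 (9.52%, interval 2.65 to 28.9). ERV1 and ERVL were 0.711 (-1.06 to 4.36) and 0.553 points (-1.23 to 4.48) above peaks without a repeat, and both intervals include 0. ERVK minus peaks without a repeat gave 7.01 points (0.129 to 26.4) from its 2 peaks. ERVL-MaLR minus ERV1 gave 2.95 points (-1.22 to 6.42) and ERVL-MaLR minus ERVL 3.11 (-1.31 to 6.58), and these intervals include 0 too. MLT1L had the highest share among the 10 frequent names, with 3 of 13 peaks. The motif in these peaks was mostly a variant of the full word, as the printed stretches show. CTGGAAGT was the match nearest to the centre in 17 of the 35 and CAGGAAGT in 8, while CCGGAAGT in full was found in 2. Among the 240 matches in peaks without a repeat, CAGGAAGT (92) was more frequent than CTGGAAGT (80).

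The median score was 39.7 for the 35 LTR peaks with the motif and 39.7 for those without it. All but 1 of the 35 were intronic, 34 in number, and the motif share was 5.50% in introns against 0.870% between genes, where 1 of 115 peaks held it. Without a repeat the shares were 2.46% in introns and 3.27% between genes (22 of 672). LTR minus no repeat gave 3.04 points in introns (1.47 to 5.15) and -2.40 between genes (-4.19 to 1.64), where the interval includes 0. Whether the difference varied by location was not tested. Because the full word is rich in GC, the shares were also compared within bands of GC content, a comparison chosen after the data were seen. From 40% to 45% GC the motif was in 18 of 269 LTR peaks (6.69%, interval 4.27 to 10.3) and in 3.17% of peaks without a repeat (2.47 to 4.06). From 45% to 50% the shares were 2.99% and 2.90%. Weighted to the GC content of LTR peaks, peaks without a repeat had the motif in 2.95%.

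AGAACA, the hexamer that makes up each arm of the androgen response element, was found in 128 LTR peaks (17.4%) and in 18.1% of peaks without a repeat. THE1B repeats differed from this, as 11 of their 23 peaks held it (47.8%, interval 29.2 to 67.0). The share over the other 711 LTR peaks was 16.5%. MER21C followed with 6 of 20 peaks (30.0%, interval 14.5 to 51.9). TGACTCA, the AP-1 site, was in 38 LTR peaks (5.18%) and in 3.30% without a repeat, a difference of 1.88 points (0.444 to 3.76). Weighted to the GC content of LTR peaks, the share without a repeat was 3.93%, which lies within the LTR interval of 3.79 to 7.03. The difference from SINE peaks was 1.58 points (-0.0120 to 3.54), an interval that includes 0. LTR minus LINE gave 3.12 points (1.63 to 5.02) and LTR minus DNA transposon 2.79 (0.957 to 4.81), and both intervals exclude 0. TGTTTAC, the forkhead word, was in 23 (3.13%) and in 3.81% without a repeat. A match in these windows describes the sequence and does not show that a factor was bound.

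**Figure D3:**
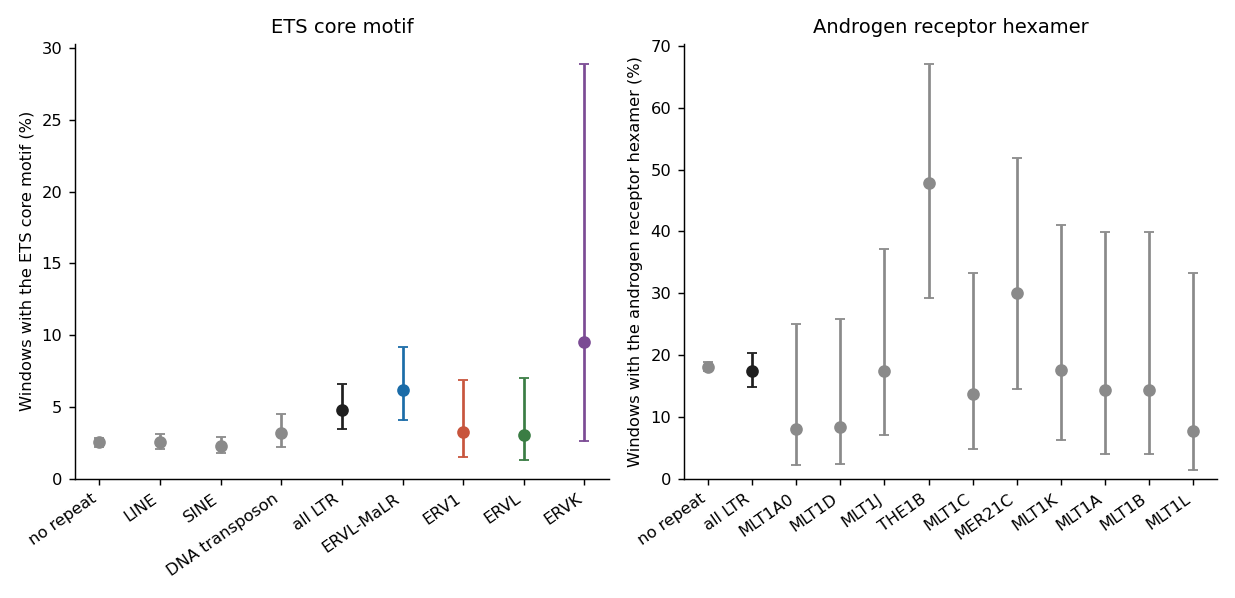
Left, percentage of 201-bp windows with the ETS core motif by repeat class and LTR family; right, percentage with the androgen receptor hexamer for the 10 repeat names with the most peaks. Points are shares and bars Wilson 95% intervals; ERVL-MaLR stands at 6.18% on the left and THE1B at 47.8% on the right.

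Peaks on one repeat name shared sequence only in part. In MLT1A0 the 12-base word printed above occurred in 8 of 25 windows, and in 0 of the 9544 windows without a repeat. Each such word was chosen from the windows of its own repeat name. The words of MLT1K, MLT1A, MLT1B and MLT1L were also in 0 windows without a repeat. Those of MLT1D, MLT1J and MER21C were in 2 each, that of THE1B in 3 and that of MLT1C in 4. The best shared word covered 7 of 23 THE1B windows and 4 of 14 MLT1A windows. In MLT1K and MLT1L it covered 2 peaks each. No word of this length was shared by more than 32.0% of the windows of any of the 10 names.

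LTR peaks named 609 genes, which was 12.2% of the 5011 genes named by any mERG peak. A single LTR peak was found at 517 of them, 2 at 70 and 3 or more at 22. Most of these genes, 483, were also named by another mERG peak, and 126 (20.7%) were named by LTR peaks alone. The strongest peak was an LTR peak at 224 genes, 98 of which had other peaks as well. Genes with more peaks more often had an LTR peak among them, which a constant LTR share of peaks would also give. The share to be had from peak number alone was not computed. The share with an LTR peak was 5.47% for genes with 1 peak and 41.2% for the 396 genes with 10 or more.

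TPD52, a gene for a vesicle-trafficking protein that is amplified in prostate cancer, was named by the most LTR peaks, with 6 of its 38 peaks and a highest LTR score of 75.2. DYRK1A, a kinase gene on chromosome 21, had 4 of 65 and the intronic transcript DIP2A-IT1 4 of 19, all 4 on ERV1 elements. RSF1, a chromatin remodelling factor, had 4 of 19. PLCB4, a phospholipase gene, had 4 of 39 and LIMCH1 4 of 56, so that 5 genes tied behind TPD52.

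Among the genes the study turns on, 6 of 13 were named by a mERG peak and 2 by an LTR peak. Here and in the lists below, the counts of LTR-named genes stand beside 12.2% over all 5011 named genes, and the share of all annotated genes that a mERG peak names was not computed. ARID2, a subunit of the PBAF chromatin remodelling complex, had 1 LTR peak among 13, on MLT1J in intron 3 with a score of 47.6. CTNNA1, which encodes alpha-catenin of cell adhesion, had 2 among 28, on LTR33 (62.8) and MLT1L (41.2), both in intron 4. ERG (2 peaks), EZH2 (6), TMPRSS2 (1) and DAAM1 (8) were named by peaks of which 0 were LTR peaks. No mERG peak named IL6, BMI1, CADPS, CTNNA2, MAT2A or PLAT. EED, a core partner of EZH2 picked after its value was seen, had an LTR37A peak 3805 bp from its start site with a score of 83.4.

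Of the ERG/EZH2 targets deregulated in CRPC, a list compiled by the study, 390 genes were named by a mERG peak and 69 of these (17.7%, beside 12.2% of all named genes) by an LTR peak. LTR peaks were 94 of the 2311 peaks at the listed genes, or 4.07%, beside 4.05% of the peaks at all named genes. The highest LTR scores were those of RERE (119.6), RHOBTB3 (101), HOMER2 (100.7) and ABHD12 (77.9). The MSTD peak of RHOBTB3 held the ETS core motif printed above. HOMER2, a scaffold gene of postsynaptic and calcium signalling, had the stronger of its 2 LTR peaks on MSTD too. The stronger of the 2 LTR peaks of ABHD12 lay on LTR8.

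The factors that silence endogenous retroviruses were represented by 13 of 25 genes with a mERG peak, and 3 of the 13 had an LTR peak (23.1%, beside 12.2% of all named genes). By peaks, 4 of the 64 at these 13 genes were LTR peaks (6.25%), beside 4.05% of the peaks at all named genes. No interval was computed for these small counts. EHMT1, an H3K9 methyltransferase, had 2 LTR peaks on MLT1C in intron 1, with scores of 60.9 and 35.3, the first being the strongest of its 13 peaks. DNMT3A, a de novo DNA methyltransferase, was named by an MLT2B3 peak (38.3) that lay 83702 bp upstream, in an intron of DTNB. FAM208A, a subunit of the HUSH silencing complex, was named by an intergenic LTR33 peak (35.9). Zinc finger genes, recognised by symbol, numbered 111 among the named genes and 17 among those with an LTR peak (15.3%), beside 12.2% of all named genes. LTR peaks were 17 of the 325 peaks at the 111 genes, or 5.23%. The highest scores were those of ZNF813 on HERV3-int (84.5), ZNF92 on MSTB (64.5), ZNF154 on PRIMA4_LTR (59.2) and ZNF704 on MLT1A0 (50.2).

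ETS factor genes were named by mERG peaks in 7 of 27 cases and by LTR peaks in 2, where the share over all named genes was 12.2%. SPDEF, a prostate epithelial ETS factor, had an LTR65 peak with a score of 61.7 at 61846 bp upstream, inside ILRUN. ETV6, an ETS repressor, had an intergenic MER34B-int peak with a score of 35.4. Androgen-driven prostate genes were named in 11 of 22 cases, and 1 had an LTR peak, ACSL3, a fatty acid ligase gene, on MER41C in intron 2 (49.7). Of 22 genes known for a promoter taken from an LTR, 3 were named by a mERG peak and 0 by an LTR peak.

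Among chromosomes with at least 100 peaks, the interval of the LTR share included the overall 4.06% with 1 exception. On chromosome 19, 19 of 192 peaks were LTR peaks (9.90%, interval 6.43 to 14.9), against 4.0% on all others, a difference of 5.90 points (2.42 to 10.9). Of these 19 peaks, 10 named a zinc finger gene, as did 19 of the 69 peaks without a repeat on chromosome 19. ERV1 elements accounted for 8 of the 19. The lowest share among chromosomes with at least 100 peaks was 2.27% on chromosome 13 (7 of 308), with an interval of 1.11 to 4.62. The list held few peaks on chromosomes 16 (26), X (30) and Y (10), with 2, 0 and 0 LTR peaks.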

How the data were processed

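The authors aligned the reads to hg19 and called peaks of the mERG ChIP library against the control with MACS. The submitters' processing notes name Bowtie2, Picard and HOMER. The deposited score is the MACS p-value on a log10 scale, multiplied by -10. The deposited file also gives position, HOMER annotation with any repeat at the peak centre, and distance to the start site. No counts were used, so depth is unknown. LTR peaks were compared with intronic and intergenic peaks without a repeat, since the annotation names repeats only there. Shares have Wilson intervals and their differences Newcombe intervals. Medians have exact binomial order-statistic intervals, combined for differences. No test across samples was possible. Windows of 100 bp on each side of the centre were read from hg19 with pysam 0.24.0; other steps used Python 3.11.15, pandas 2.3.3 and SciPy 1.17.1. Interval and motif steps were tested on simulated data.

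Named were the 10 LTR peaks with the highest score and their genes, the strongest LTR peak of each family, the 10 most frequent repeat names, the 5 genes with the most LTR peaks, list genes with an LTR peak (the 4 highest in score where there were over 6) and the genes the study turns on. The members and lists were chosen with earlier results of these data known. Some gene symbols in the list had been converted to dates, at 3 LTR peaks, and 3 LTR peaks had no gene. Some genes and sequence stretches that these rules would name are not reported here.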

Additional observations from a re-analysis of the deposited data

How the results depend on the processing

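Each of the 11 results was recomputed under other settings, 89 in all, of which 11 were chosen after seeing the data. No difference whose interval excluded 0 changed sign, but the interval came to include 0 for the score difference in 3 settings and for the intergenic difference at a minimum score of 50. Of the planned settings 58 stayed within the interval of the reported value, or for counts within 1.5 times, as did 10 of the added ones. Some settings whose own interval came to include 0 are among them. With the stronger 50% of peaks there were 337 LTR peaks and 283 genes. At a minimum score of 50 there were 164 LTR peaks and 141 genes, the ERVL-MaLR share was 44.5%, the median score difference -0.260, the width difference -41.5 bp, the intergenic difference 2.58 points and the share with a peak within 10 kb 54.9%. The lower counts follow from keeping fewer peaks. The score difference there was taken among peaks selected by score, and why the other values moved was not tested. With the strongest peak of each gene only, the score difference was -4.24 and the intergenic difference 17.2 points, and the cause was not tested. Windows of 50 bp on each side gave an ETS core share of 2.59%, a GGAA share of 67.8% and a GC difference of 6.93 points. Whole peaks gave 9.26%, 96.7% and 4.49 points. Without a mismatch the ETS core share was 0.272%. Within 5 kb and 50 kb the shares with another peak were 51.8% and 84.6%. With terminal parts only, an added alternative, the ERVL-MaLR share was 55.8%. These window, motif and distance shares follow from what each alternative counts, and why the GC difference moved was not tested. No peak carried the class LTR?, so that alternative gave the same values. No paired analysis was possible because there was 1 library of each kind. With 1 ChIP library, no spread between replicates was available, and the control's kind, read depth and the mappability of repeats were not tested.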

Other observations

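The genes named by LTR peaks were mostly protein-coding, with 619 of the 734 peaks (84.3%), beside 84.8% without a repeat. Pseudogenes were named by 28 LTR peaks (3.81%), against 1.70% of peaks without a repeat. ERVL-MaLR held 14 of these, ERV1 12, and ERVL and ERVK 1 each.

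LTR peaks lay downstream of the start site they were named for in 72.3% of cases, beside 75.6% without a repeat. On internal parts the share was 63.7%, against 74.2% on terminal parts, a difference of -10.5 points (-19.6 to -2.09).

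Elements with few peaks included some strong ones. The 3 LTR10 peaks scored between 37.9 and 281, and the 3 MER61 peaks between 36.97 and 138. MER41 repeats had a median of 46.6 over 13 peaks (37.4 to 65.8), and the interval includes the median of all LTR peaks. MER4 repeats had 8 of 20 peaks between genes. These groups were chosen after the data were seen.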
